A study of Arabidopsis thaliana with 12 samples.

Results

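The transcript ratios of the Arabidopsis thaliana line AK065297 were set against those of the line AK102323, as the difference of their deposited log ratios over every probe of the array. The comparison rests on 4 of the 12 arrays of the series, the 2 titled AK065297 and the 2 titled AK102323. It covered 21494 of the 21500 probes, those with a value on all 12 arrays. Each line carries 1 rice full-length cDNA clone, after which it is named, and is described in the labels as retransformed plants. On every array, RNA from the transformants was labelled with Cy3 and RNA from untransformed Col-0, the common laboratory accession, with Cy5. The 4 other lines of the series, AK069096, AK073112, AK073210 and AK073675, were measured in the same way with 2 arrays each. RNA came from the aerial parts of plants kept at 22 °C under long days (16 h light, 8 h dark). The sources used here do not give what the 2 clones encode, the promoter that drives them, the age of the plants or the number of independent transformants in each line. Nor do they say whether the 2 arrays of a line came from separate plants, so the p-values below measure the spread between arrays, which may be technical.

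Lines that each express a different full-length cDNA of another plant are a way to look for functions of that cDNA, since each line adds the product of a single foreign gene to an otherwise common background. A comparison of such lines with each other, in place of each with the wild type, sets aside whatever all arrays have in common, such as a dye effect or a shared Col-0 RNA. It does not set aside a property of Col-0 RNA that only 1 line was hybridised with. Shoots of Arabidopsis hold leaves, stems and, in flowering plants, flowers and fruits, so genes of these organs can differ through the share of each organ in the harvest as well as through the RNA in each cell. In such bulk samples, fewer cells of a type and less RNA per cell cannot be told apart. A ratio holds no level, so the tissue could not be checked against its marker genes.

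Values are log2 ratios, with the deposited values taken as log10. The labels do not settle whether the deposited ratio has the transformant or Col-0 on top. A positive difference therefore means that AK065297 lay above AK102323 on the scale of the deposited ratio, and it gives no direction of expression. Errors are the SE of the fit, with 2 arrays per line throughout.

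The 2 lines were among the closer pairs of the series. Over all probes the SD of the difference of their means was 0.398, the 4th smallest of the 15 pairs of lines, which spanned 0.349 for AK073675 with AK102323 to 0.598 for AK069096 with AK073210. The spread between replicates, as the SD of the half-difference of a line's 2 arrays, was 0.2 in AK065297 and 0.174 in AK102323. Each of these is for the mean of 1 line, whereas 0.398 holds the spread of both line means, so they are not directly comparable. Replicate arrays correlated over probes with r = 0.641 in AK065297 and r = 0.644 in AK102323, while arrays of AK065297 correlated with arrays of AK102323 at r = 0.353 to 0.488. These coefficients run across probes, which are not independent replicates. Exact zeros made up 3.3% and 2.92% of the AK065297 arrays, against 7.12% and 9.43% of the AK102323 arrays.

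**Figure D1:**
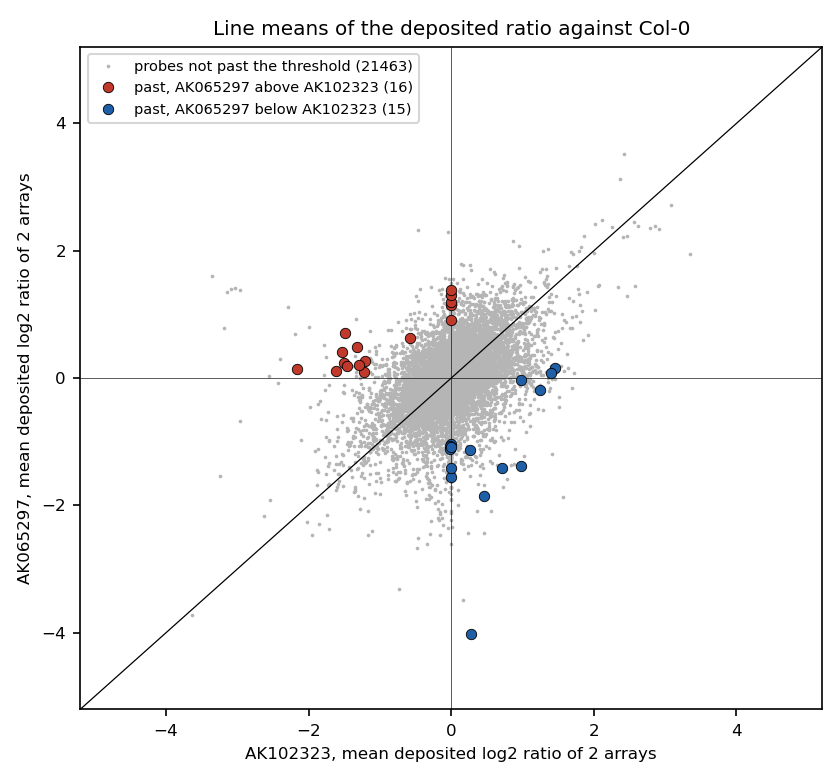
Mean deposited log2 ratio against Col-0 of the 2 arrays of AK065297 (vertical axis) and of AK102323 (horizontal axis), 1 point per probe, with the line of equal values. The 16 red probes past the threshold with AK065297 above lie at or left of 0 for AK102323, and 11 of the 15 blue probes with AK065297 below lie at or under -1 for AK065297.

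Of 21494 probes, 31 passed limma's test at a Benjamini-Hochberg adjusted p of 0.05, or 0.144% of those tested. AK065297 lay above AK102323 in 16 of them (0.0744%) and below it in 15 (0.0698%). At an unadjusted p below 0.05 there were 1911 probes (8.89%), with 904 positive (4.21%) and 1007 negative (4.69%). The 31 probes had absolute differences of 0.91 to 4.29 with a median of 1.42, and adjusted p-values of 0.0102 to 0.0492. Only 1 of them carries a gene symbol, SP1L4. A further 8 are known by a locus code, and 22 have no gene listed for the probe. The count depended strongly on the arrays in the fit: with only the 4 arrays of the 2 lines in the fit, 0 probes passed by limma (4230 at an unadjusted p below 0.05), and without AK102323 replicate 1 also 0 (1100 unadjusted). All 31 differences kept their sign in each of the 22 alternative settings that gave the probe a value. Most of these settings could not turn a sign. The arrays of the 2 lines do not overlap in these probes, so leaving 1 of them out keeps the sign. Settings that change only the spread or the other lines leave the difference as it is. Each probe passed in 7 to 19 of the settings, some of which repeat the same fit.

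**Figure D2:**
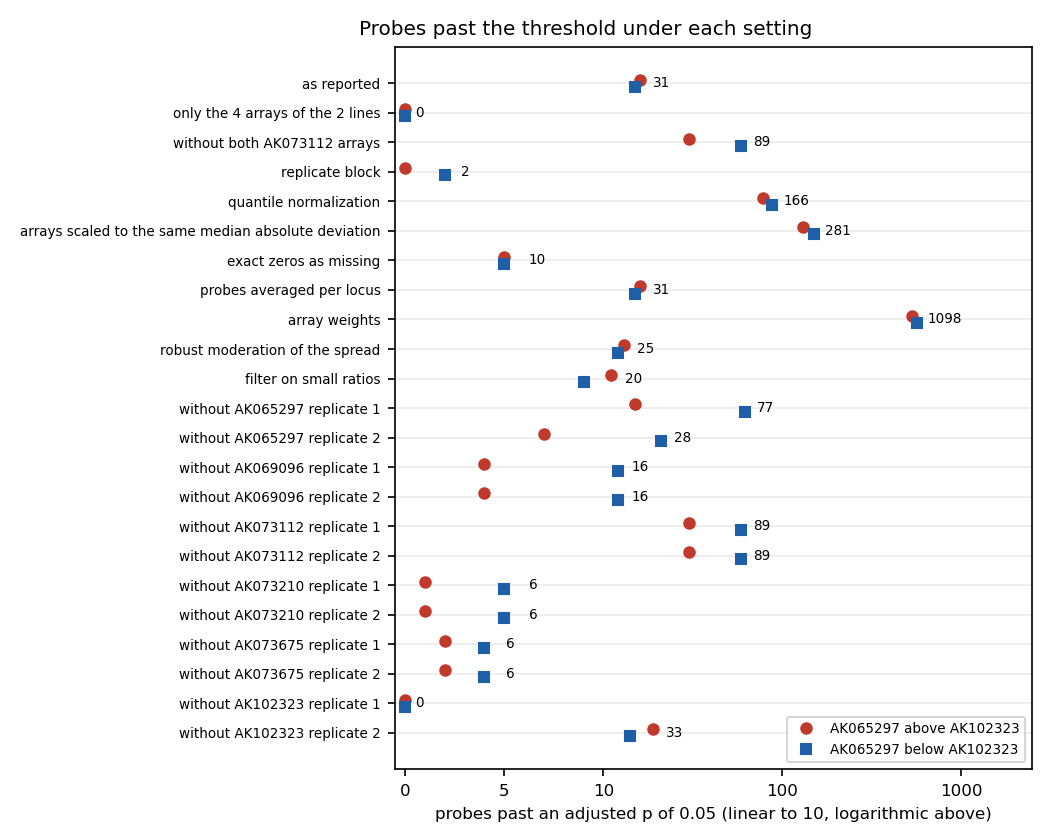
Number of probes past an adjusted p of 0.05 in the fit as reported and in 22 alternative settings, on an axis that is linear to 10 and logarithmic above, with AK065297 above AK102323 in red and below in blue. The total ran from 0 to 1098, against 31 as reported.

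Most of the 16 positive probes were set apart by low ratios in AK102323. In 10 of them the mean of AK102323 was -1 or less, and in 8 of these the line AK073210 was at -1 or less as well. Over all probes AK073210 was at such a value in 1.74%, but among the 291 probes with AK102323 at -1 or less it was so in 145 (49.8%). These classes were drawn up after the values were seen. SP1L4, a SPIRAL1-like protein of a family that acts on cortical microtubules and directional growth, had ratios of 0.34 and 0.04 in AK065297, against -1.71 and -1.23 in AK102323. Its difference was 1.66 ± 0.19 (adjusted p = 0.0375, limma), and the 2 lines did not overlap, as in all 31 probes and in 54.7% of all probes tested (28.2% with AK065297 above and 26.5% with it below). The mean of AK073210 was -1.28 for this gene, while the 3 remaining lines lay between -0.4 and -0.03.

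AT2G37750 gave the widest of these differences with a locus code, 2.31 ± 0.3 (adjusted p = 0.0469), with 0.39 and -0.1 in AK065297 against -2.63 and -1.7 in AK102323. AT4G24420 had 0.61 and 0.2 in AK065297 against -1.85 and -1.21 in AK102323, a difference of 1.94 ± 0.23 (adjusted p = 0.0375). AT1G12650 had 0.5 and 0.04 in AK065297, against -1.39 and -1.02 in AK102323, a difference of 1.47 ± 0.19 (adjusted p = 0.0469). All 3 were also low in AK073210, with means of -2.24, -1.35 and -1.46 in that order, and near 0 in the other lines. The tables used here give no function for these loci. Probes 20785, 4186, 9129 and 1097, with no gene listed, had the same arrangement and differences of 1.74 to 2.2.

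AT3G15280 was low in AK102323 with a value nearer 0 in AK073210. Its ratios were 0.26 and 0.15 in AK065297, against -1.42 and -1.17 in AK102323, a difference of 1.49 ± 0.12 (adjusted p = 0.0181), and its mean was -0.58 in AK073210. It passed in 19 of the 22 alternative settings, a count shared with AT2G01300 and probe 22315 and the most among the 31 probes. The 22 settings are not separate checks. Leaving out either array of a line outside the pair gives the same fit, since the lone array left adds nothing to the spread. For AK073112 that fit is also the one without both of its arrays. Probe 17669, with 0.2 and 0 in AK065297 and -1.42 and -1.01 in AK102323, had means of 0 to 0.09 in the other 4 lines. Both arrays of AK073112, AK073210 and AK073675 were listed at 0 for it, so those means and part of its SE rest on zeros.

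A different arrangement stood behind another 5 positive probes, in which both AK102323 arrays were listed at exactly 0. AT1G47280 had 1.18 and 1.19 in AK065297, against 0 and 0 in AK102323, a difference of 1.19 ± 0.14 (adjusted p = 0.0375). The 4 other lines had means of 0.75 to 0.94 for this locus, so that AK102323 lay apart only through its exact zeros. Together with 4 negative probes, 9 of the 31 had both AK102323 arrays at exactly 0, against 5.95% of all probes, and 0 of the 31 had both AK065297 arrays at exactly 0, against 1.69% of all probes. The sources used here do not say what an exact 0 stands for. With exact zeros taken as missing, 10 of the 31 probes still passed. The last positive probe, 1575, had 0.62 and 0.63 in AK065297 and -0.65 and -0.49 in AK102323.

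**Figure D3:**
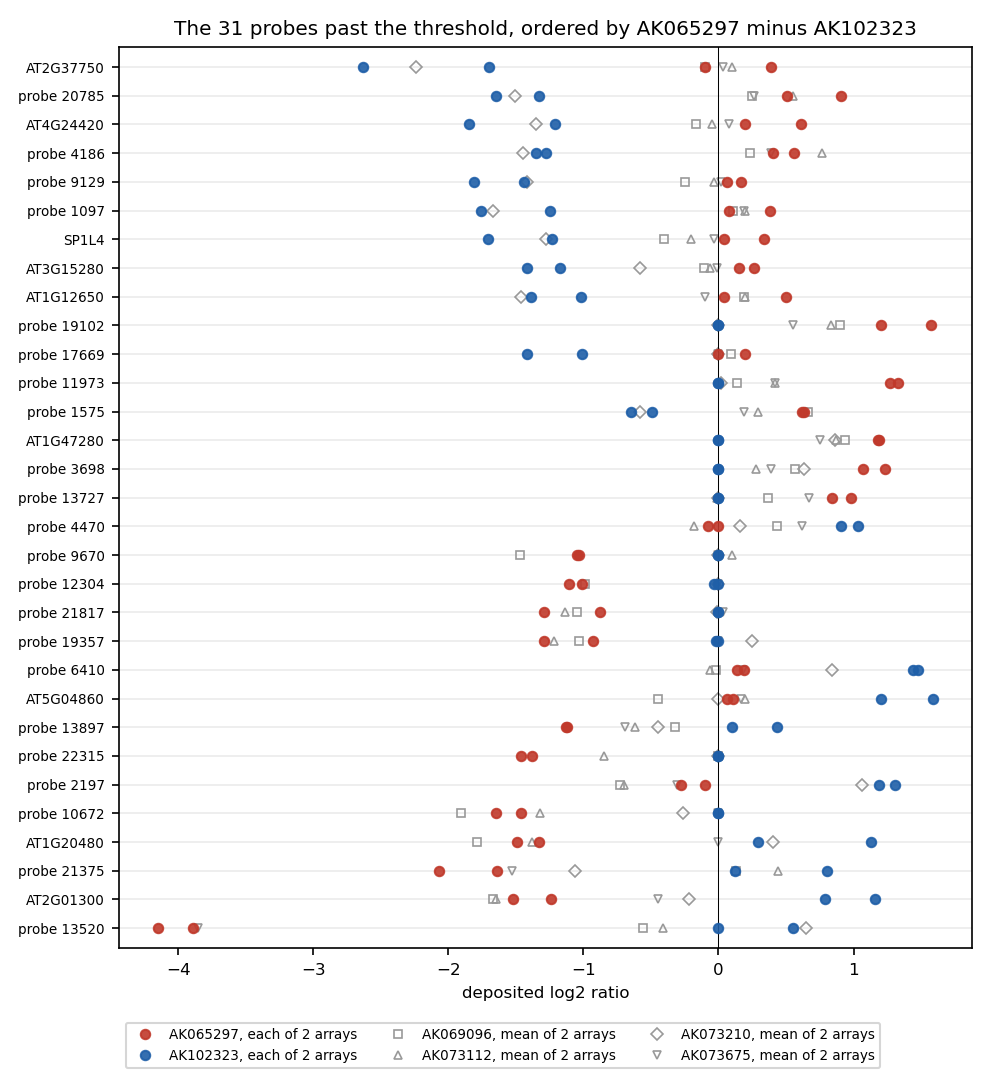
Deposited log2 ratios of the 31 probes past the threshold, 1 row per probe, with each AK065297 array (red), each AK102323 array (blue) and the means of the 4 other lines (open symbols). In 8 of the upper rows AK073210 lies with AK102323 at -1 or less, and in 11 of the 15 lower rows AK065297 has a mean of -1 or less.

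On the negative side, 11 of the 15 probes had an AK065297 mean of -1 or less. The widest difference of all probes past the threshold was that of probe 13520, which has no gene listed: -4.15 and -3.89 in AK065297, against 0.55 and 0 in AK102323. Its difference was -4.29 ± 0.38 (adjusted p = 0.0204), and AK073675 was low too, with a mean of -3.85. AT2G01300 had -1.24 and -1.52 in AK065297, against 0.79 and 1.16 in AK102323, a difference of -2.36 ± 0.2 (adjusted p = 0.0204). The 2 lines lay on opposite sides of 0, and AK069096 (-1.67) and AK073112 (-1.65) were on the side of AK065297.

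AT1G20480 was arranged in the same way, with -1.49 and -1.33 in AK065297 against 1.13 and 0.29 in AK102323. The difference was -2.12 ± 0.26 (adjusted p = 0.0396), with means of -1.79 in AK069096 and -1.38 in AK073112. Among the 11 probes with AK065297 at -1 or less, AK069096 was also at -1 or less in 6, AK073112 in 5, AK073675 in 2 and AK073210 in 1. Among all 505 probes with AK065297 at -1 or less the shares were 45.5% for AK069096, 35.2% for AK073112, 30.9% for AK073675 and 30.9% for AK073210. Probe 22315 had the lowest adjusted p of the comparison, 0.0102, with -1.38 and -1.46 in AK065297 and 0 on both AK102323 arrays. Its difference was -1.42 ± 0.1, and it passed in 19 of the 21 settings that gave it a value. Both arrays of AK069096, AK073210 and AK073675 were at exactly 0 for it as well. Its small SE and low p thus rest largely on pairs of exact zeros, and it has no value with exact zeros taken as missing.

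In the other 4 negative probes AK102323 had a mean of 0.9 or more, and the mean of AK065297 lay within 0.2 of 0. AT5G04860 had 0.06 and 0.11 in AK065297, against 1.2 and 1.59 in AK102323, a difference of -1.31 ± 0.16 (adjusted p = 0.0375). The other lines had means of -0.45 to 0.2 for it, while in probe 2197 AK073210 was also high, with a mean of 1.06, and in probe 6410 it was at 0.84. Measured by the distance from the median of the 4 other lines, AK102323 was the farther line in 21 of the 31 probes and AK065297 in 10. These counts include the probes with both AK102323 arrays at exactly 0, where the place of that line rests on the zeros. Over all probes the shares were near even, with AK065297 farther in 49.4% and AK102323 in 50.6%.

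A wider set of probes shared the low values of AK102323 and AK073210. With both line means at -1 or less and every one of the other 4 line means above -0.5, a rule written after the values were seen, there were 22 probes, of which 8 had passed the test. Their differences ran from 1.19 to 4.95 with a median of 1.91, and in all 22 the arrays of AK065297 lay above those of AK102323, as they did in 28.2% of all probes. The rule itself favours that side, so nothing is read from this count. The widest was probe 21666, with no gene listed, at 2.66 and 0.55 in AK065297 and -4.32 and -2.38 in AK102323 (difference 4.95 ± 0.78, adjusted p = 0.0715). AT2G38240 had 2.81 and 0 in AK065297, against -3.82 and -2.36 in AK102323 (difference 4.5 ± 0.87, adjusted p = 0.128). PRA1.F1, a prenylated Rab acceptor of the family that handles vesicle traffic, had 1.28 and -0.23 in AK065297 and -1.9 and -1.67 in AK102323 (difference 2.31 ± 0.57, adjusted p = 0.243).

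The replicates were uneven in this set. AK102323 replicate 1 was below replicate 2 in 22 of 22 probes and AK065297 replicate 1 was above replicate 2 in 19. The medians over the set were 0.59 and 0.12 on the 2 AK065297 arrays, against -1.83 and -1.3 on the 2 AK102323 arrays and -1.7 and -2.03 on the 2 AK073210 arrays. On AK102323 replicate 2 alone, the 22 values ran from -2.38 to -0.87. For AK102323 the unevenness went beyond these probes: its replicates differed by 2 or more in 52 probes, with replicate 1 the lower in 51. In AK065297 the replicates differed by as much in 103 probes without such a lean, with replicate 1 lower in 46 and replicate 2 lower in 57. The part of single arrays in these differences was not tested beyond leaving each of them out.

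Differences of at least 1 in size were found in 730 probes (3.4%), with 252 positive (1.17%) and 478 negative (2.22%), whether or not they passed. Among the 478 negative ones AK065297 had a mean of -1 or less in 260 and AK102323 a mean of 1 or more in 77. Among the 252 positive ones AK065297 had a mean of 1 or more in 99 and AK102323 a mean of -1 or less in 73. Both AK102323 arrays were at exactly 0 in 19.2% of the negative and 9.13% of the positive ones, against 5.95% of all probes. At a size of 2 or more there were 58 probes, 20 positive and 38 negative, and 6 of them had passed. In all 38 negative ones AK065297 was at -1 or less, and AK073675 was as well in 19. In 18 of the 20 positive ones AK102323 was at -1 or less, and AK073210 was as well in 13.

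Among the 1317 probes with a gene symbol, SP1L4 alone passed, and 99 (7.52%) had an unadjusted p below 0.05, 40 positive and 59 negative. The further genes with symbols were therefore ranked by unadjusted p, and none of those named from here on passed the adjusted threshold. On the negative side the 5 lowest p-values belonged to SAL2, scpl16, BGLU19, AMY1 and GRX480, with adjusted p-values of 0.0724 to 0.0933. SAL2, which belongs with the phosphatases of the SAL1 kind, had -2.08 and -1.89 in AK065297, against 0.32 and -0.57 in AK102323 (difference -1.86 ± 0.29, 95% interval -2.54 to -1.18). AK073210 and AK073675 were on the side of AK065297 for this gene.

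The serine carboxypeptidase-like gene scpl16 had -1.69 and -1.67 in AK065297, against 0.11 and 0.81 in AK102323 (difference -2.14 ± 0.34, interval -2.92 to -1.35). GRX480, a CC-type glutaredoxin that binds TGA factors in the salicylic acid response, had -1.37 and -1.3 in AK065297 against 0.49 and 0.65 in AK102323 (difference -1.91 ± 0.33, interval -2.66 to -1.16). Both genes had the 2 lines on opposite sides of 0, as 10.6% of all probes did. AMY1, an alpha-amylase, had -1.29 and -1.26 in AK065297 against 0.4 and -0.12 in AK102323 (difference -1.41 ± 0.24). BGLU19, a beta-glucosidase, had -2.57 and -1.66 in AK065297 and 0 on both arrays of AK102323 (difference -2.12 ± 0.35), so that its difference again rests on a pair of exact zeros.

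PDC3, a pyruvate decarboxylase of the fermentation pathway, had a difference of -1.62 ± 0.29, with -1.42 and -1.34 in AK065297 and 0.49 and -0.02 in AK102323. PUB15, a U-box ubiquitin ligase, had -1.01 and -1.71 in AK065297 and 0.57 and 0 in AK102323 (-1.65 ± 0.31). LUP5, a triterpene synthase, had the widest negative difference of any gene with a symbol, -2.35 ± 0.57, from -2.6 and -2.06 in AK065297 and 0.64 and -0.61 in AK102323, with an adjusted p of 0.229. The SE of LUP5, which rests on the spread between replicate arrays, was larger than that of SAL2. Small differences with close replicates also ranked high: KIN1, a cold-induced gene, had -0.4 and -0.38 in AK065297 against 0.08 and 0.1 in AK102323 (-0.48 ± 0.11, adjusted p = 0.177). IRX15-L, which acts in xylan synthesis of secondary walls, had 0.09 and 0.12 in AK065297 against 0.76 and 0.89 in AK102323 (-0.72 ± 0.15, adjusted p = 0.169).

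On the positive side, 12 of the 14 genes with the lowest p had differences of 0.35 to 0.74, and SP1L4 and PRA1.F1 had wider ones. SPT (SPATULA), a bHLH factor of carpel development, had 0.89 on both AK065297 arrays, against -0.03 and 0.39 in AK102323 (difference 0.71 ± 0.14, adjusted p = 0.133). HIS1-3, a linker histone variant induced by drought, had 1.39 and 1.37 in AK065297 against 0.54 and 0.9 in AK102323 (0.66 ± 0.14, adjusted p = 0.169), and all 6 lines lay above 0 for it. SPL (SPOROCYTELESS, also NOZZLE), needed for the formation of spore-forming cells in ovules and anthers, had 0.22 and 0.53 in AK065297 against -0.41 and -0.19 in AK102323 (0.68 ± 0.17, adjusted p = 0.256). ALPHA-VPE, a vacuolar processing enzyme of vegetative organs, had 1.05 and 0.56 in AK065297 against 0.1 and 0.03 in AK102323 (0.74 ± 0.19, adjusted p = 0.269). The remaining genes of this rank, among them the calmodulin-like CML23, the dehydration-response factor DREB2C, the cytokinin response regulator ARR15 and the DNA polymerase delta subunit POLD3, had differences of 0.35 to 0.63.

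**Figure D4:**
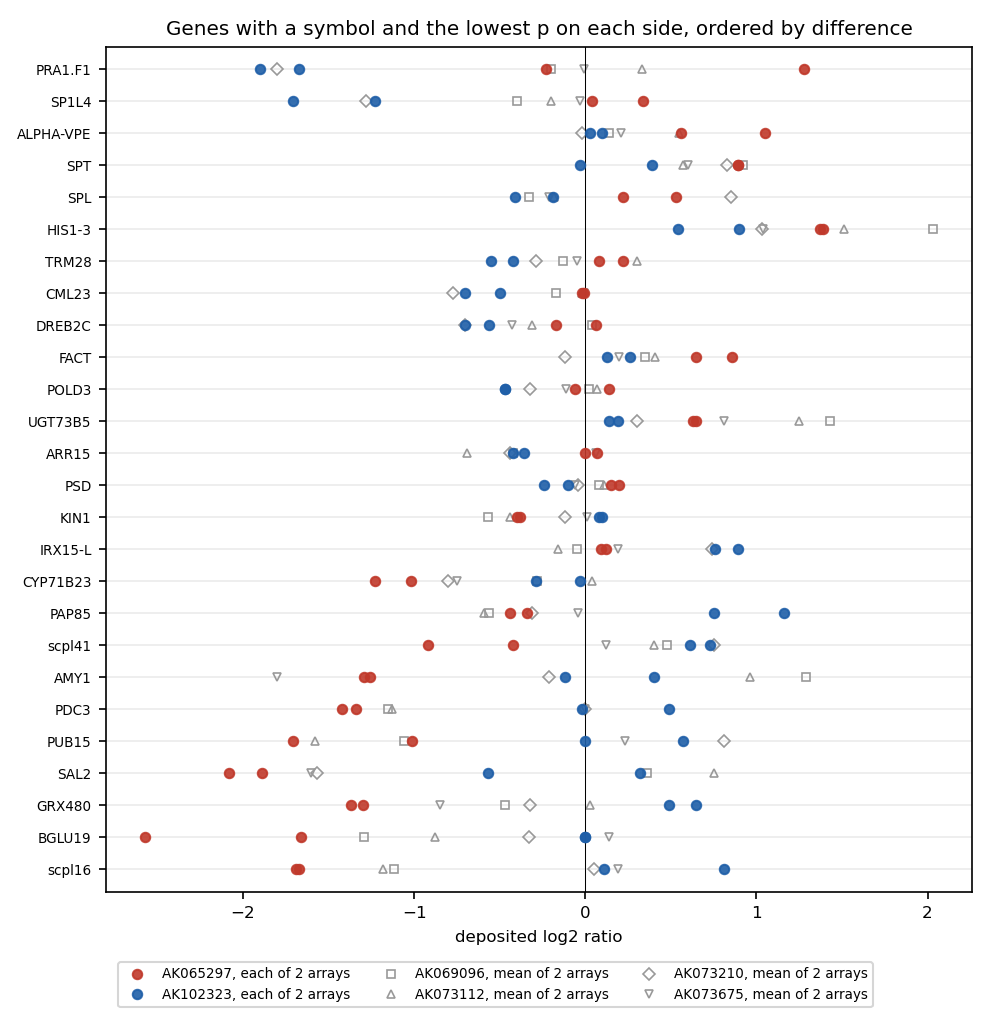
Deposited log2 ratios of the genes with a symbol that had the lowest p on each side, ordered by difference, with each array of AK065297 (red) and AK102323 (blue) and the means of the 4 other lines (open symbols). SP1L4 alone passed the adjusted threshold, and 7 of the 12 genes shown with AK065297 below have a difference of -1.41 or lower with AK065297 under -1.

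Process lists were read as counts at an unadjusted p below 0.05, beside the 4.21% positive and 4.69% negative of all probes, since no member passed the adjusted threshold. The photosynthesis list, mostly of light-harvesting and photosystem genes, had 0 of 10 genes past the unadjusted threshold, differences of -0.15 to 0.2 and a median of 0.05. Chlorophyll synthesis had 0 of 7, with a median of 0.06 and differences of -0.07 to 0.16. PORB, a protochlorophyllide reductase of this pathway, had -0.5 and -0.75 in AK065297 and -0.79 and -0.76 in AK102323 (0.15 ± 0.32, interval -0.6 to 0.89), so both lines lay below 0 by similar amounts. The median of all probes was 0.

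Of the 5 flavonoid and anthocyanin genes, 4 lay well above 0 on all arrays of both lines, and their differences did not pass. The other, the flavonol glycosyltransferase UGT78D1, had 0.05 and -0.14 in AK065297 against -0.04 and -0.11 in AK102323 (0.03 ± 0.16). DFR, dihydroflavonol reductase, had 2.56 and 2.11 in AK065297 against 2.63 and 3.19 in AK102323 (-0.58 ± 0.88, interval -2.62 to 1.46). UF3GT, an anthocyanin glycosyltransferase, had 2.91 and 2.53 in AK065297 against 2.75 and 3.42 in AK102323 (-0.37 ± 0.74). AT5MAT, an anthocyanin malonyltransferase, had 2.44 and 2.34 in AK065297 against 2.15 and 3.09 in AK102323 (-0.23 ± 0.88). The flavonoid glycosyltransferase UGT78D2 had 1.37 and 0.92 in AK065297 against 1.74 and 1.86 in AK102323 (-0.66 ± 0.52). In DFR and UGT78D2 the lines did not overlap, with AK065297 below, as in 26.5% of all probes. The list had 0 of 5 genes past the unadjusted threshold and a median of -0.37. The intervals leave room for differences of more than 1 either way for DFR, UF3GT and AT5MAT.

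Cold genes lay on both sides of 0. Of 7 genes, KIN1 was on the negative side at an unadjusted p below 0.05 and COR27 on the positive side (0.77 ± 0.26, with -0.49 and 0.03 in AK065297 and -1.25 and -0.75 in AK102323). COR15A, a chloroplast cold protein, had 0.89 and 1.14 in AK065297 against 0.78 and 0.37 in AK102323 (0.44 ± 0.29), and its neighbour in name COR15B had -1.13 and -1.01 in AK065297 against -0.94 and -1.26 in AK102323 (0.03 ± 0.25). The jasmonate list had 0 of 4 genes past the unadjusted threshold, with PDF1.2 at -0.3 ± 1.11 and THI2.1 at -0.01 ± 0.26. Of the salicylic acid list only 2 genes were measured, GRX480 and WRKY53, a senescence and defence factor, and WRKY53 had -1.4 and -0.74 in AK065297 against 0.05 and -0.47 in AK102323 (-0.86 ± 0.29).

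Auxin genes had 1 of 8 on the positive side, GH3.1, an enzyme of the family that conjugates auxin to amino acids, with 1.24 and 1.37 in AK065297 against 0.35 and 0 in AK102323 (1.13 ± 0.36, adjusted p = 0.363). IAA29 had 0.37 ± 0.92. In the ER body list, of beta-glucosidases and other proteins of an endoplasmic reticulum compartment known for defence against herbivores, 1 of 14 probes was positive and 2 were negative. NAI1, the bHLH factor required for these bodies, had 0.18 and 0 in AK065297 against 1.52 and 1.14 in AK102323 (-1.24 ± 0.38). PYK10, their main beta-glucosidase in roots, had 0.87 and 1.91 in AK065297 against 0.04 and -0.93 in AK102323 (1.84 ± 0.7). The factor and the enzyme thus stood on different sides of 0. The highest member, ATA27, a tapetum beta-glucosidase, had 0.35 and 0.32 in AK065297 but -4.75 and 1.25 on the 2 AK102323 arrays, so that its difference of 2.09 ± 2.14 rests on AK102323 replicate 1.

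Starch and sugar genes had 2 of 15 on the negative side, AMY1 and SWEET16, a vacuolar sugar transporter (-0.78 ± 0.21), and 0 on the positive side, while the median was 0.19. SWEET13, a sucrose exporter, had 1.43 on both AK065297 arrays against 1.07 and 1.28 in AK102323 (0.25 ± 0.71). Wall expansion genes had 0 of 19 and iron, copper and zinc genes 0 of 4 past the unadjusted threshold, with medians of -0.02 and -0.17. The nitrate transporter NRT2.5 had 0.12 ± 0.77, BETA-VPE 0.3 ± 0.73 and GAMMA-VPE -0.13 ± 0.92. In these 3 genes the SE exceeded the difference.

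Families of genes with a shared symbol were read in the same way. Of 45 UDP-glycosyltransferases, enzymes that attach sugars to small molecules, 8 were positive and 1 negative at an unadjusted p below 0.05, with a median of -0.02. UGT76E12 had 0.85 and 2.01 in AK065297 against -0.35 and -0.23 in AK102323 (1.72 ± 0.6), and UGT73B4 had 0.5 and 1.82 in AK065297 against -0.04 and -0.05 in AK102323 (1.21 ± 0.46). UGT73C6, a flavonol glycosyltransferase, had 0.58 and 0.23 in AK065297 against -0.97 and -0.43 in AK102323 (1.1 ± 0.34). The negative member was UGT76B1, which glucosylates isoleucic acid, with -0.92 and -0.66 in AK065297 against 1.05 and 0 in AK102323 (-1.32 ± 0.53). Adjusted p-values in this family were 0.317 or higher.

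The U-box ligases had 3 of 10 on the negative side (PUB15, PUB54 and PUB24) and 0 on the positive side, and the CYP71B group of cytochromes P450 3 of 14 and 0. The 15 expansins, 17 TBL wall acetylation genes and 10 tubulins had 0 past the unadjusted threshold.

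Most of the remaining lists held 1 or 2 genes at an unadjusted p below 0.05. Detoxification had 3 of 19 positive, all UGT genes, and 3 negative: MSRB8, a methionine sulfoxide reductase (-1.25 ± 0.38), and the glutathione transferases GSTU20 (-0.61 ± 0.2) and GSTU22 (-0.33 ± 0.12). MSRB6 was far below 0 in both lines, with -2.06 and -2.89 in AK065297 against -1.37 and -2.53 in AK102323 (-0.52 ± 0.84). Glucosinolate synthesis had 1 of 4 positive, CYP79A2 (0.82 ± 0.31), and clock and light signalling 1 of 3 negative, HYH, a bZIP factor of light responses (-0.89 ± 0.26). Single positive members were HIS1-3 of 6 cell cycle and histone genes, ARR15 of 2 cytokinin genes and SHN2, a wax regulator, of 3 cuticle genes (0.53 ± 0.19).

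Senescence genes had 1 of 7 positive (ALPHA-VPE) and 1 negative (WRKY53), and the ubiquitin ligase list 1 of 9 positive (ATL43, 1.06 ± 0.42) and 2 negative (PUB15 and PUB24), with PUB22 at 0.53 ± 0.35. Lignin genes had 1 of 9 negative, scpl16, and terpene synthesis 1 of 2, LUP5. The heat shock, gibberellin and brassinosteroid, ethylene, nitrate and guard cell lists, of 2 genes each, had 0. Among the other families the serine carboxypeptidase-like proteins had 2 of 22 negative, scpl16 and scpl41, with a median of -0.11. The glutamate receptor-like channels had 2 of 7 negative, GLR2.8 (-1.14 ± 0.37) and GLR1.4 (-0.43 ± 0.11). The WRKY, BGLU, XTH and SWEET families had 1 negative each, of 9, 16, 8 and 11 probes, the calmodulin-like family 1 of each sign of 7, and the 6 jacalin lectin probes 0. No probe was named for the abscisic acid and drought or the phloem and xylem lists.

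Markers of other organs were compared between the lines, without a level for any of them. Of 29 flower and fruit markers listed, only 4 were measured, with a median difference of 0.69. At an unadjusted p below 0.05, 3 of the 4 were positive, against 4.21% of all probes. These 3 were SPT, SPL and INO, an outer integument factor (0.63 and 0.93 in AK065297 against 0 and 0 in AK102323, 0.78 ± 0.28). The difference of INO thus rests on AK102323 values listed at 0. Both measured seed markers were negative. PAP85, a vicilin-like protein of seeds, had -0.44 and -0.34 in AK065297 against 0.75 and 1.16 in AK102323 (-1.34 ± 0.31, adjusted p = 0.199). Pollen and anther markers had 0 of 9 past the unadjusted threshold with a median of 0.38, and root markers 1 positive (PYK10) and 1 negative of 6. Median ratios of the flower and fruit markers were 0.76 and 0.91 on the AK065297 arrays, against -0.02 and 0.2 on the AK102323 arrays. The part of organ composition in the differences above was not tested.

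**Figure D5:**
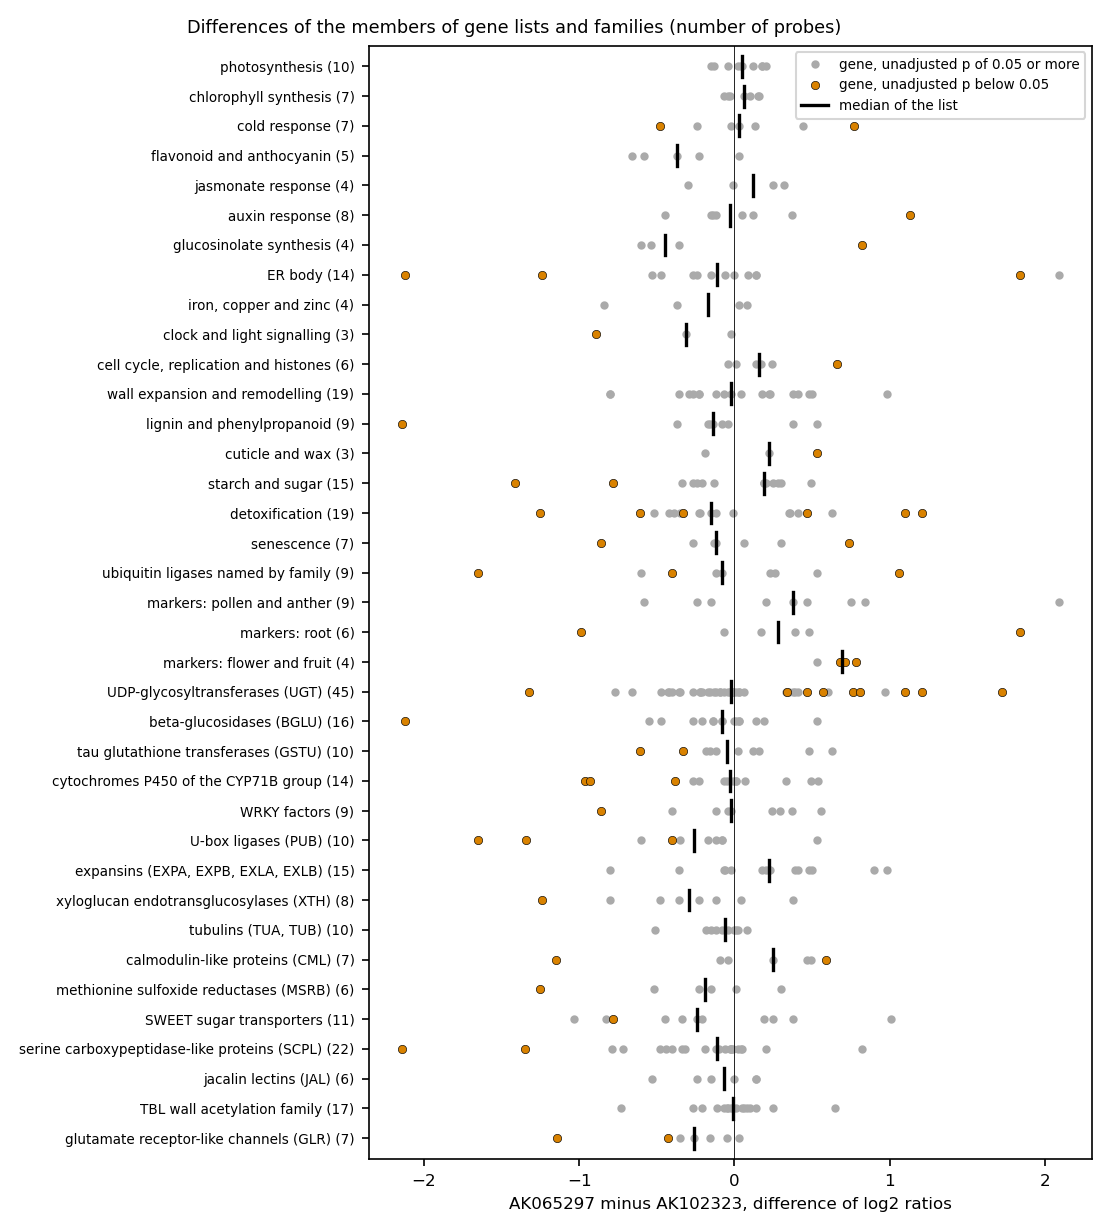
Difference of log2 ratios, AK065297 minus AK102323, of each measured member of the gene lists and families with at least 3 genes, 1 row per list with the number of probes. Orange points had an unadjusted p below 0.05 and black bars mark the median, which lies between -0.45 and 0.69 in the lists shown.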

How the data were processed

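The authors deposited 1 log ratio per probe and array. The tool listed in the submitters' processing notes is Agilent Feature Extraction 7.1.1. That program writes log ratios as log10, so the deposited values, whose base is not stated, were taken as log10 and converted here to log2. The sources used here give neither the direction of the ratio nor the intensities, background correction and dye correction behind it, so signal over background is unknown and the number of arrays limits the precision. Lines were taken from the titles, since every description field names the clone AK069096.

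Probes were named through the array's gene list, with symbols updated through the gene ID. Of 21500 probes, 9335 have 1 gene, 40 several and 12125 none listed, and 9317 matched. A mean per line was fitted over all 12 arrays with limma 3.58.1 in R 4.3.3 (6 residual and 1.88 prior degrees of freedom). The test was two-sided with Benjamini-Hochberg adjustment over 21494 probes at 0.05. It was also run on simulated arrays with independent noise of equal spread on all arrays. Those had no exact zeros or uneven arrays, so that run does not bear on these features of the data. Genes with a symbol were ranked among those past the threshold with lines that do not overlap, 14 on each side, then 8 on opposite sides of 0 and 6 known by locus code on each side, and by unadjusted p where under 6 passed. A set of 25 genes of wide interest is given whatever its values.

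The members, lists and named genes were chosen with earlier results of these data known. The families were first matched on words of the gene descriptions, which caught unrelated genes, and were matched by symbol after the values were seen. The gene CHI was then left out of the flavonoid list, because it is a chitinase under this symbol. One gene family is not reported here, and its members are named in no text or figure. List counts use an unadjusted p. The alternatives tried were the arrays in the fit, a replicate block, the scaling, exact zeros, averaging per locus, array weights, robust moderation, a filter on small ratios, the log base and leaving out each array.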

Additional observations from a re-analysis of the deposited data

Results flagged for a closer look

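With 2 arrays per line, no test for a single outlying array within a line could be made. The 9 probes below with a gene name were picked out because the 2 lines differed from each other by limma's test at an adjusted p below 0.05. The differences AK065297 minus AK102323 were positive for AT2G37750 (2.31), AT4G24420 (1.94), SP1L4 (1.66), AT3G15280 (1.49), AT1G12650 (1.47) and AT1G47280 (1.19). They were negative for AT2G01300 (-2.36), AT1G20480 (-2.12) and AT5G04860 (-1.31). AT2G37750, AT4G24420, SP1L4 and AT1G12650 were the ones in which AK073210 lay with AK102323. None of the 9 passed with only the 4 arrays of the 2 lines in the fit or without AK102323 replicate 1.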

How the results depend on the processing

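The number of probes past the threshold was the least stable value. Each of the 31 kept its sign in all 22 settings that gave it a value, but most settings could not have turned it. Against 31 probes as reported, and 30 with an absolute difference of at least 1, the counts were 0 and 0 with only the 4 arrays of the 2 lines, 89 and 63 without both AK073112 arrays, whose replicates were unlike, 166 and 126 after quantile normalization, 281 and 195 with arrays scaled to the same median absolute deviation, 10 and 10 with exact zeros as missing, and 1098 and 349 with array weights. With the filter on small ratios, which tested 11188 probes, 20 passed, and 16 of these were among the 31. Taking the deposited values as log2 left 1 probe at an absolute difference of at least 1. With a replicate block the counts were 2 and 2. The arrays share only a replicate number: deviations of same-numbered arrays correlated at r = 0.00944 for the 2 lines, and at -0.068 to 0.175 over all 15 pairs of lines. Leaving out 1 array gave 0 to 89 probes, and 0 to 69 with a difference of at least 1: 0 without AK102323 replicate 1, 6 without either array of AK073210 or AK073675, 16 without either array of AK069096, 77 without AK065297 replicate 1 and 89 without either array of AK073112. Leaving out 1 array of the pair leaves a lone array, assumed to vary like the other lines. Where probes passed in such a fit, most of them were not among the 31. Where no construction explains a change of count, the cause was not tested. Of 58 named probes 50 kept their sign throughout, and 17 passed in no setting. None that turned had passed: AT5MAT (0.24 without AK102323 replicate 2; -0.7 to 0.24 over the single arrays left out), MSRB6 (0.12 after quantile normalization, -1.1 to 0.06 with single arrays left out), NRT2.5 (-0.13 with arrays scaled, -0.02 to 0.27), BETA-VPE (-0.01 with arrays scaled), GAMMA-VPE (-0.32 to 0.07), COR15B (-0.12 to 0.19), PDF1.2 (-1.04 to 0.44) and THI2.1 (-0.34 to 0.33), where a bare range is over the single arrays left out.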
